A study of Mus musculus with 27 samples.

Results

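Adipocyte lineage and lipid uptake genes were followed across Prx1-derived cells of skeletal muscle, periosteum and bone marrow. The 9 members, chosen by gene symbol in the table of normalized counts, were Pparg, Cebpa, Adipoq, Cfd, Plin1, Fabp4, Lpl, Cd36 and Apoe, out of 30154 entries. The cells were sorted from muscle, periosteum and bone marrow of the femur and tibia of young adult animals of both sexes, all Prx1-CreER/Ai14/Rag1 and all given tamoxifen a few days earlier, so every group shares the Cre driver, the reporter, the Rag1 allele and the treatment. In these animals tamoxifen-inducible Cre under the Prx1 promoter switches on tdTomato, so the label marks Prx1 cells and whatever descends from them after the injections, and Rag1 mutant animals lack mature lymphocytes. Within tdTomato+ CD45- cells, P1 was CD105- CD200+, P2 was CD105- CD200- and P3 was CD105+ with variable CD200. Each tissue gave 3 replicates of each subpopulation, which makes 9 groups and 27 libraries. According to the series description all samples were taken within the same animals, but which animal gave which library is not stated, so the p-values here measure only the spread between libraries, which were treated as independent. Fat was removed from the muscle at dissection. Muscle was digested with collagenase for longer than the scraped periosteum, and bone marrow was flushed, so the tissue and its handling cannot be told apart.

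Fat cells arise from mesenchymal progenitors through a cascade in which the nuclear receptor PPARγ, encoded by Pparg, and the transcription factor C/EBPα, encoded by Cebpa, switch on the genes of lipid storage. Among those genes are the secreted proteins adiponectin (Adipoq) and adipsin (Cfd), the droplet coat protein perilipin 1 (Plin1) and the fatty acid carrier FABP4 (Fabp4). Fatty acids enter cells after lipoprotein lipase (Lpl) has released them from triglyceride-rich lipoproteins, with the help of the surface receptor CD36 (Cd36), and apolipoprotein E (Apoe) guides lipoprotein remnants to their receptors. Several of these genes are not restricted to fat: Fabp4 and Cd36 are also known from the endothelium of capillaries, and Adipoq and Lpl from the Cxcl12-rich stroma of bone marrow.

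Promoters of 7 of the 9 members, 11 windows in all, were found among the RefSeq promoter windows of GRCm38.p6, and none was found for Fabp4 and Lpl. Each reached from 250 bases before to 50 bases after a start listed for the gene, and a gene can have several. The windows of 3 members are shown because these genes share a textbook place in the adipocyte program and yet had very different levels in the sorted cells: Adipoq reached 7044 normalized counts in bone marrow, Plin1 was listed at 0 nearly everywhere, and Cd36 ran from 0 in P1 libraries of periosteum and bone marrow to 23513 in muscle P3. Capitals mark matches on either strand to AGGTCA (a nuclear receptor half-site), TTGCNNAA (a C/EBP-type motif), TATAAA or CCAAT. The windows lie at chr16:23146286-23146585 on the plus strand (Adipoq), chr7:79732727-79733026 on the minus strand (Plin1) and chr5:17835847-17836146 on the minus strand (Cd36). The Cd36 window lies inside the annotated gene span, away from its outermost start at 17888801, so it shows only 1 start region of that gene.
Adipoq: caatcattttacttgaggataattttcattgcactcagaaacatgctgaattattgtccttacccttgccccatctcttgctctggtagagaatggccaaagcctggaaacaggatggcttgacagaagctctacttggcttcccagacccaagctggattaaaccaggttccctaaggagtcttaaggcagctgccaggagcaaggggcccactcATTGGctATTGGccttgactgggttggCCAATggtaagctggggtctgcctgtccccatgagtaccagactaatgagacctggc
Plin1: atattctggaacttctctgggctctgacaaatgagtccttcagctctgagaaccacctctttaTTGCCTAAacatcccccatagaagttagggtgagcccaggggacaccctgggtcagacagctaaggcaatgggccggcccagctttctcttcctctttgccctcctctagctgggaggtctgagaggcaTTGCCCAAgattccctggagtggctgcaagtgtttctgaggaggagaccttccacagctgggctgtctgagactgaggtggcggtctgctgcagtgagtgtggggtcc
Cd36: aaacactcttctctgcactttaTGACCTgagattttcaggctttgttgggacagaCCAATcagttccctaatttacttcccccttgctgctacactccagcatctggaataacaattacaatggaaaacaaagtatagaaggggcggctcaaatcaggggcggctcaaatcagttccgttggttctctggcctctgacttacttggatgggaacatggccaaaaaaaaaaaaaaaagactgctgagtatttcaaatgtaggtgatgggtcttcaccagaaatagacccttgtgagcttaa
The Adipoq window held 3 CCAAT matches, 1 forward and 2 reverse, and none of the other motifs. In Plin1 there were 2 TTGCNNAA matches and none of the others. The Cd36 window had 1 AGGTCA match on the reverse strand and 1 CCAAT match. Over 32851 windows of the same length, AGGTCA was found in 16.3%, TTGCNNAA in 10.8%, TATAAA in 13.6% and CCAAT in 37.4%. A match is only a string of letters, and no binding was measured.

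Libraries summed to between 8631900 and 26231000 normalized counts and had a value above 0 for 12396 to 21675 genes. Replicates of a group correlated with a Pearson r of 0.631 to 0.955 across genes. Several groups carried transcripts of other cell types despite the sort. Summed erythroid markers were 24.7% to 39.7% of the total for periosteum P2 and 45.6% to 48.9% for bone marrow P2, against at most 4.79% in any P1 or P3 library. Muscle fibre markers were 11.7% to 16.6% of the total in muscle P2. Cd200 and Eng, the genes of the sorting antigens CD200 and CD105, followed the gates in part. Cd200 was 1025, 3274 and 2560 in muscle P1 and 10.3, 1107 and 69.5 in muscle P2, so muscle P2 replicate 2 exceeded muscle P1 replicate 1. In periosteum Cd200 was 2607 to 3972 in P1 and 7.24 to 52.8 in P2, and in bone marrow 6315 to 7515 and 21.1 to 72.6. Eng was 774 to 7328 in the 9 P3 libraries and 5.18 to 569 in the others. Bone marrow P3 replicate 1 stood above its group in Adipoq, Lpl, Apoe, Pparg, Cebpa, Cd36 and Fabp4. Many bone marrow results of members are therefore also given without it, but not all. Results of the genes outside the members include it. Prrx1, which encodes Prx1, had values above 0 in all 27 libraries, from 64.0 in periosteum P2 to 4578 in periosteum P1.

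Of the 9 members, 8 passed the filter of at least 10 normalized counts in at least 3 libraries, and Plin1 did not. A gene is called differentially expressed below at an adjusted p under 0.05 in limma with an absolute log2 fold change above 1.5, on log2(normalized count + 1), which understates changes of low genes. Among tissues, with the 3 subpopulations weighted equally, 4 of the 8 members passed in muscle against periosteum, where 20.4% of the 18442 genes tested did. In muscle against bone marrow 4 passed, beside 21.7% of all genes, and in periosteum against bone marrow 2 passed, beside 20.8%. In P1 cells alone, 3 members differed between muscle and periosteum (4.90% of all genes), 3 between muscle and bone marrow (8.34%) and 1 between periosteum and bone marrow (4.87%). P1 against the mean of P2 and P3 gave 0 members in muscle (1.05% of all genes), 2 in periosteum (9.16%) and 5 in bone marrow (18.9%). The comparison of P3 with P1 called 0 members for muscle (0.466%), 2 for periosteum (4.18%) and 2 for bone marrow (6.60%). For the 0 counts in muscle, limma gave an unadjusted p under 0.05 for 1 member in P1 against P2 and P3 and for 3 members in P3 against P1. The change between P1 and the other subpopulations itself differed in 1 member between muscle and periosteum (2.44%), in 1 between muscle and bone marrow (7.41%) and in 0 between periosteum and bone marrow (2.80%), the last with 1 member at an unadjusted p under 0.05.

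**Figure D1:**
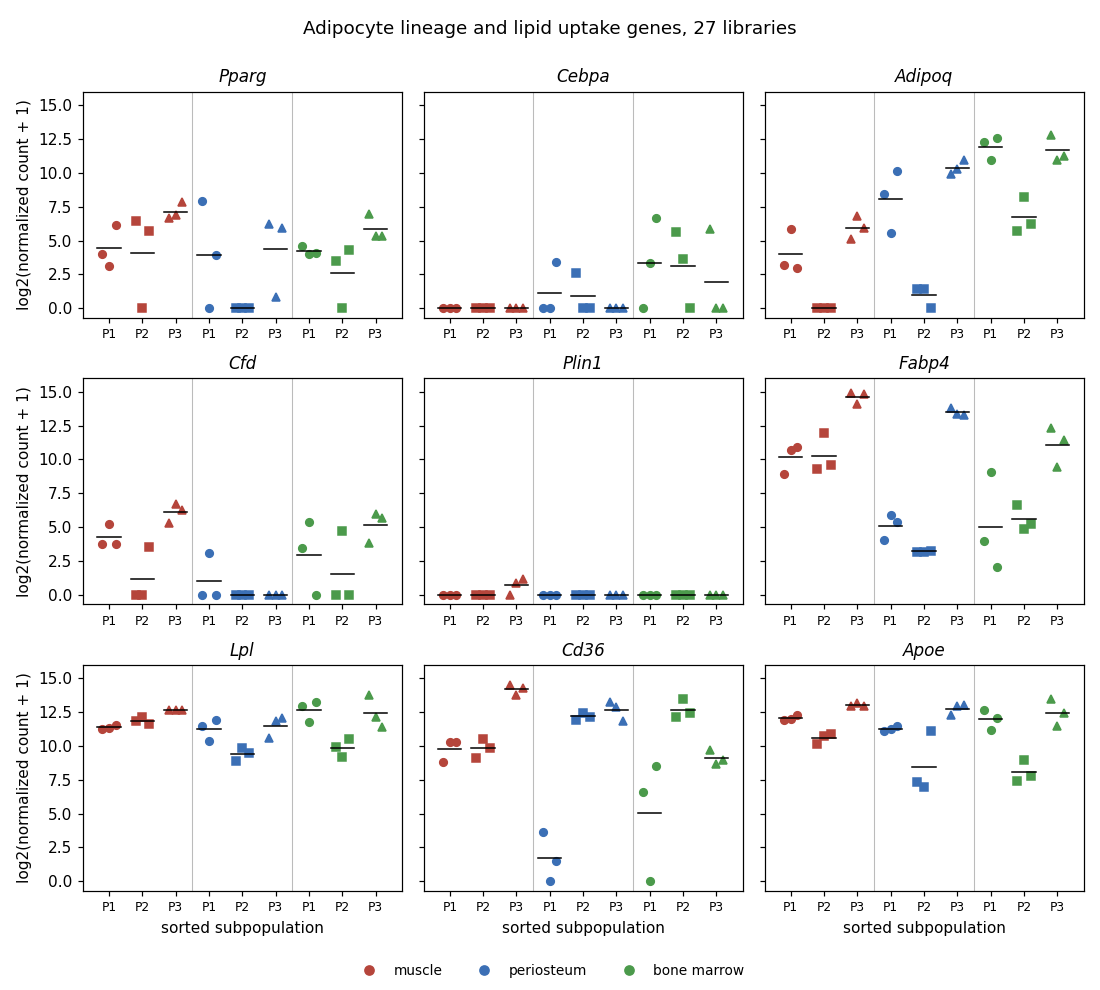
Levels of the 9 members as log2(normalized count + 1) in each of 27 libraries, by sorted subpopulation and tissue, with points for libraries and bars for group means. Fabp4 and Cd36 peaked in muscle P3, Adipoq in bone marrow P1 and P3, and Plin1 lay at or near 0 throughout.

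The regulators were scarce. Pparg (ENSMUSG00000000440, chr6:115360951-115490399 on the plus strand in GRCm38, GENCODE M21) was listed at 0 in 6 of 27 libraries and did not exceed 243. In muscle, Pparg was 15.4, 7.79 and 70.5 normalized counts in P1, 86.3, 0 and 51.0 in P2, and 103, 115 and 224 in P3. Periosteum gave 243, 0 and 14.0 in P1, 0 in all 3 P2 libraries, and 75.3, 0.82 and 60.3 in P3. In bone marrow the values were 23.7, 14.9 and 16 in P1, 10.2, 0 and 18.2 in P2, and 124, 38.4 and 39.4 in P3. P3 held the highest values of muscle and bone marrow, with no overlap with P1, but periosteum P1 spanned the whole range within 1 group. Pparg passed in no comparison: the muscle against periosteum log2 difference was 2.44 ± 1.01 (SE, 95% confidence interval 0.34 to 4.54, adjusted p = 0.0799), and P3 exceeded P1 in muscle by 2.68 ± 1.76 (adjusted p = 1). Without periosteum P1 replicate 1 the first of these became 3.10 (adjusted p = 0.0208), and without muscle P2 replicate 2 it became 3.12 (adjusted p = 0.0219). An antisense gene, Gm44079, overlaps Pparg in that annotation. It has no row in the table as used here, and with the Nextera kit, which does not mark strand, reads from both would be counted alike.

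Cebpa (ENSMUSG00000034957, chr7:35119293-35121928, plus strand) was listed at 0 in 20 of 27 libraries, including all 9 from muscle. In bone marrow it was 0, 8.88 and 101 in P1, 48.3, 11.3 and 0 in P2, and 57.4, 0 and 0 in P3. Single libraries carried each of those groups. Periosteum had 9.59 in 1 P1 library and 5.01 in 1 P2 library, and 0 in the others. Cebpa was lower in muscle than in bone marrow (adjusted p = 0.0198), for which no fold is given because every muscle library was at 0. The call was lost without bone marrow P3 replicate 1 (adjusted p = 0.0508), bone marrow P1 replicate 3 (0.0541) or bone marrow P2 replicate 1 (0.0521). An antisense gene, Gm45091, overlaps Cebpa and likewise has no row here.

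Adiponectin gave the largest tissue difference of any member over the subpopulations, while in P1 alone that of Cd36 between muscle and periosteum was larger. Adipoq lies at chr16:23146536-23158028 on the plus strand (ENSMUSG00000022878). In muscle it was 7.98, 57.7 and 6.68 in P1, listed at 0 in all 3 P2 libraries, and 33.6, 111 and 60.03 in P3. Periosteum had 340, 46.9 and 1111 in P1, 1.67, 1.71 and 0 in P2, and 977, 1250 and 1970 in P3. Bone marrow had 4883, 2000 and 6088 in P1, 51.0, 296 and 74.6 in P2, and 7044, 2015 and 2368 in P3. Every tissue thus had its lowest Adipoq in P2, and every bone marrow P1 and P3 library exceeded every library of the other tissues. Over the subpopulations, Adipoq was lower in muscle than in bone marrow by a log2 difference of -6.79 ± 0.59 (SE, adjusted p = 4.02e-09), lower than in periosteum by -3.14 ± 0.59 (adjusted p = 0.000478), and periosteum in turn lay below bone marrow by -3.64 ± 0.59 (adjusted p = 8.25e-05). Without bone marrow P3 replicate 1 the contrasts with bone marrow were -6.60 (adjusted p = 2.61e-08) and -3.46 (adjusted p = 0.00032).

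The order of tissues held in P1 cells alone. P1 of muscle was below P1 of bone marrow by -7.94 ± 1.03 (adjusted p = 1.08e-05), with no overlap between the libraries. P1 of muscle was below P1 of periosteum by -4.04 ± 1.03 (adjusted p = 0.0202), and P1 of periosteum was below P1 of bone marrow by -3.89 ± 1.03 (adjusted p = 0.0254). The last pair did not overlap, but its call was lost without periosteum P1 replicate 1 (-4.08, adjusted p = 0.0522) or replicate 2 (-2.67, 0.13) and without bone marrow P1 replicate 1 (-3.73, 0.0951) or replicate 3 (-3.57, 0.12), and its adjusted p was 0.0528 to 0.0695 in the 3 scalings and with a pseudocount of 0.1 and 0.222 with the compared groups alone. That of muscle against periosteum was lost without muscle P1 replicate 1 (-3.63, 0.0979) or replicate 3 (-3.52, 0.109) and without periosteum P1 replicate 1 (-3.86, 0.0691) or replicate 3 (-3.002, 0.105), with a pseudocount of 0.1 (0.055) and with the compared groups alone (0.265). Osteoblast markers also summed far higher in P1 of bone marrow, at 4.75% to 7.54% of the total, and of periosteum, at 1.81% to 3.59%, than in P1 of muscle, at 0.1% to 0.25%, and their part in the result was not tested.

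Within bone marrow, Adipoq was higher in P1 than in the mean of P2 and P3 by 2.74 ± 0.89 (adjusted p = 0.0312). P2 alone was low: P3 and P1 differed by -0.27 ± 1.03, with a 95% confidence interval of -2.40 to 1.85 (adjusted p = 0.997). The same P2 libraries held the erythroid transcripts given above, whose part in the result was not tested, and in bulk samples fewer cells of a type cannot be told apart from less RNA per cell. Without bone marrow P3 replicate 1 the first difference was 3.02 (adjusted p = 0.0256) and the second -0.84 (adjusted p = 0.872). The first lost its call without P1 replicate 1 (2.58, adjusted p = 0.116), P1 replicate 3 (2.42, 0.139), P2 replicate 1 (2.49, 0.0675), P2 replicate 3 (2.62, 0.0584), P3 replicate 2 (2.57, 0.067) or P3 replicate 3 (2.63, 0.062), and in the scalings to equal totals it was 2.32 (0.0677) with globins and 1.88 (0.121) without. In periosteum the same comparison gave 2.37 ± 0.89 (adjusted p = 0.0957), and 3.60 (0.0138) without periosteum P1 replicate 2 or 1.33 (0.424) without replicate 3. P3 against P1 in periosteum was 2.35 ± 1.03 (95% confidence interval 0.23 to 4.48, adjusted p = 0.228), and 1.12 (0.639) without periosteum P1 replicate 2.

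Adipsin and perilipin 1 gave little signal. Cfd (ENSMUSG00000061780, chr10:79890853-79892655, plus strand), the complement serine protease of fat, was 12.1, 37.3 and 12.5 in muscle P1, 0, 0 and 10.4 in P2, and 39.3, 104 and 75.4 in P3. Periosteum had 7.48 in 1 P1 library and 0 in the other 8. In bone marrow it was 9.98, 40.1 and 0 in P1, 0, 24.5 and 0 in P2, and 13.2, 60.5 and 51.1 in P3. Cfd was thus almost missing from the periosteum libraries, and it was lower there than in muscle (3.49 ± 0.77 for muscle against periosteum, adjusted p = 0.00187) and than in bone marrow (-2.88 ± 0.77, adjusted p = 0.00788). In P1 alone, muscle against periosteum gave 3.21 ± 1.33 (adjusted p = 0.191) although all 3 muscle libraries exceeded all 3 of periosteum. With periosteum mostly at 0, the sizes of these 3 Cfd folds depend on the pseudocount. In the alternative settings, other than leaving out a library, they ran from 2.06 to 5.68, -4.70 to -1.67 and 1.76 to 5.40 in the order given. Plin1 (ENSMUSG00000030546, chr7:79720218-79732903, minus strand), which coats the droplets of mature fat cells, was listed at 0 in 25 libraries and was 0.82 and 1.28 in 2 of muscle P3.

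Fabp4 and Cd36 were highest in P3 of muscle, beside the endothelial genes. Fabp4 (ENSMUSG00000062515, chr3:10204088-10208576, minus strand), the carrier of fatty acids in the cytoplasm, was 484, 1677 and 1913 in muscle P1, 614, 3943 and 775 in P2, and 30980, 17339 and 28609 in P3. Periosteum had 15.4, 57.4 and 40.3 in P1, 7.98, 7.90 and 8.54 in P2, and 13920, 10581 and 9903 in P3. Bone marrow had 14.6, 532 and 3.08 in P1, 96.0, 28.0 and 36.1 in P2, and 5078, 702 and 2827 in P3. In every tissue all 3 P3 libraries exceeded all 3 P1 libraries. P3 was higher than P1 by 8.38 ± 1.14 in periosteum (adjusted p = 4.65e-05) and by 6.06 ± 1.14 in bone marrow (adjusted p = 0.00116), the latter 5.45 (adjusted p = 0.00882) without bone marrow P3 replicate 1. In muscle the difference was 4.42 ± 1.14 (95% confidence interval 2.06 to 6.79) and did not pass (adjusted p = 0.0927), although the fit of muscle P1 and P3 alone gave an adjusted p of 0.0163 and a pseudocount of 5 gave 0.0295. Fits of the compared groups alone lost the calls in periosteum (adjusted p = 0.0607) and bone marrow (0.106).

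Fabp4 also separated the tissues. It was higher in muscle than in periosteum by 4.43 ± 0.66 (adjusted p = 3.19e-05) and than in bone marrow by 4.47 ± 0.66 (adjusted p = 1.28e-05), and in P1 alone by 5.09 ± 1.14 (adjusted p = 0.00903) and 5.16 ± 1.14 (adjusted p = 0.00367). Without muscle P1 replicate 3 the P1 difference from periosteum was 4.73 (adjusted p = 0.0505), and with the compared groups alone the adjusted p of that from bone marrow was 0.129. All muscle P1 libraries exceeded all periosteum P1 libraries, while bone marrow P1 replicate 2, at 532, overlapped with muscle. P1 was lower than the mean of P2 and P3 by -3.24 ± 0.99 in periosteum (adjusted p = 0.0383) and by -3.30 ± 0.99 in bone marrow (adjusted p = 0.0203). The former was lost without periosteum P1 replicate 1 (-2.71, 0.175), replicate 2 (-3.63, 0.0517) or replicate 3 (-3.38, 0.076) and without periosteum P3 replicate 1 (-3.17, 0.0581), and its adjusted p was 0.053 to 0.062 with a pseudocount of 0.1, no filter, no trend or quantile normalization. The latter was lost without bone marrow P1 replicate 1 (-2.77, 0.116) or replicate 3 (-1.81, 0.243), and was -5.32 (8.79e-05) without replicate 2 and -2.99 (0.0449) without bone marrow P3 replicate 1.

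Endothelial markers moved with these values. The summed level of 15 such markers was 60550 to 88680 in muscle P3, 33440 to 61760 in periosteum P3 and 4829 to 15410 in bone marrow P3, against 7383 to 17660 in muscle P1, 802 to 2053 in periosteum P1 and 342.9 to 647.3 in bone marrow P1. P3 was higher than P1 in 4 of the 15 for muscle (11 with quantile normalization), 13 for periosteum and 13 for bone marrow. Of all genes, 0.325%, 2.79% and 3.14% were higher in these comparisons in the main fit. With quantile normalization 213 of all genes were called in either direction for muscle, against 86 in the main fit. Muscle was higher than periosteum and than bone marrow in 13 of the markers each, beside 17.2% and 10.9% of all genes. Of the defining markers, Pecam1 was 10537, 6067 and 8460 in muscle P3 and Cdh5, which encodes VE-cadherin, was 2344, 1887 and 1929 there, while in bone marrow P1 Cdh5 was 1.70, 0 and 1.71. Gpihbp1, which anchors lipoprotein lipase to the capillary wall, followed the same groups: its means were 4768 in muscle P3, 3990 in periosteum P3 and 618.5 in bone marrow P3, and at most 25.1 in the other groups. The part of endothelial cells in the Fabp4 and Cd36 results was not tested. Other genes with the most similar pattern to Fabp4 over the 27 libraries were Gimap4 (Pearson r = 0.942), Emcn (0.925) and Sox18 (0.909), of which Emcn and Sox18 are on the endothelial marker list.

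Cd36 (ENSMUSG00000002944, chr5:17781690-17888801, minus strand), the fatty acid receptor, was 444, 1275 and 1235 in muscle P1, 538, 1472 and 918 in P2, and 23513, 13654 and 20031 in P3. Periosteum had 11.1, 0 and 1.76 in P1, 3923, 5649 and 4596 in P2, and 9588, 7501 and 3676 in P3. Bone marrow had 94.6, 0 and 364 in P1, 4433, 11071 and 5510 in P2, and 838, 414 and 496 in P3. P1 was thus the low point of periosteum and of bone marrow. The P2 libraries of those tissues were high in Cd36 at Fabp4 values of at most 96.0, and were the libraries rich in erythroid markers. Those libraries also held macrophage markers, whose sums ran from 1291 to 10480 for periosteum and from 4316 to 16890 for bone marrow, and platelet markers, from 43.4 to 5295 and from 1840 to 15520. Groups lower in Cd36 overlapped with these sums. Macrophage sums were 513.8 to 1790 in periosteum P1, 3496 to 10890 in bone marrow P1 and 3951 to 7411 in bone marrow P3. Platelet sums were 203.8 to 1057, 1455 to 8228 and 1235 to 8659 in the same order. The parts of these cells in the Cd36 levels were not tested.

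P1 was lower than the mean of P2 and P3 in Cd36 by -10.73 ± 1.08 in periosteum (adjusted p = 2.75e-07) and by -5.86 ± 1.08 in bone marrow (adjusted p = 0.000374), in both without overlap. In muscle the same difference was not called, and the difference of differences between muscle and periosteum was 8.53 ± 1.53 (adjusted p = 0.00267). Without bone marrow P1 replicate 2, which was at 0, the bone marrow value was -3.35 (adjusted p = 0.00242), and without bone marrow P3 replicate 1 it was -5.71 (0.00101). P3 was higher than P1 by 10.96 ± 1.25 in periosteum (adjusted p = 4.57e-06) and by 4.09 ± 1.25 in bone marrow (adjusted p = 0.0455). The bone marrow call did not survive leaving out P1 replicate 2 (1.58, 0.372), P3 replicate 1 (3.80, 0.12), P3 replicate 2 (4.30, 0.104) or P3 replicate 3 (4.18, 0.12), and with the compared groups alone the adjusted p was 0.294 there and 0.0867 in periosteum. In muscle P3 exceeded P1 by 4.39 ± 1.25 (95% confidence interval 1.81 to 6.96, adjusted p = 0.152), which passed with a pseudocount of 5 (adjusted p = 0.0111) and with muscle P1 and P3 alone (0.0104). The P1 group of periosteum lies near 0, so these folds depend on the pseudocount: with 0.1 in place of 1 the largest became 12.29.

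Among tissues, Cd36 was higher in muscle than in periosteum by 2.42 ± 0.72 (adjusted p = 0.0165) and than in bone marrow by 2.33 ± 0.72 (adjusted p = 0.0172). Both missed the threshold with a pseudocount of 0.1 (adjusted p = 0.0501 and 0.0663). Without bone marrow P1 replicate 2 the second fell below the fold threshold, at 1.49, and without bone marrow P3 replicate 1 it was 2.43 (adjusted p = 0.0206). P1 of muscle was higher than P1 of periosteum by 8.11 ± 1.25 (adjusted p = 0.00033) and than P1 of bone marrow by 4.77 ± 1.25 (adjusted p = 0.0144), with no overlap in either pair. The latter was lost without bone marrow P1 replicate 2 (2.25, 0.105), muscle P1 replicate 2 (4.50, 0.0634) or muscle P1 replicate 3 (4.53, 0.0592), and with the compared groups alone (adjusted p = 0.216). The genes most like Cd36 over the libraries were Cyp4b1 (r = 0.884), Mfng (0.842) and Tinagl1 (0.81).

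**Figure D2:**
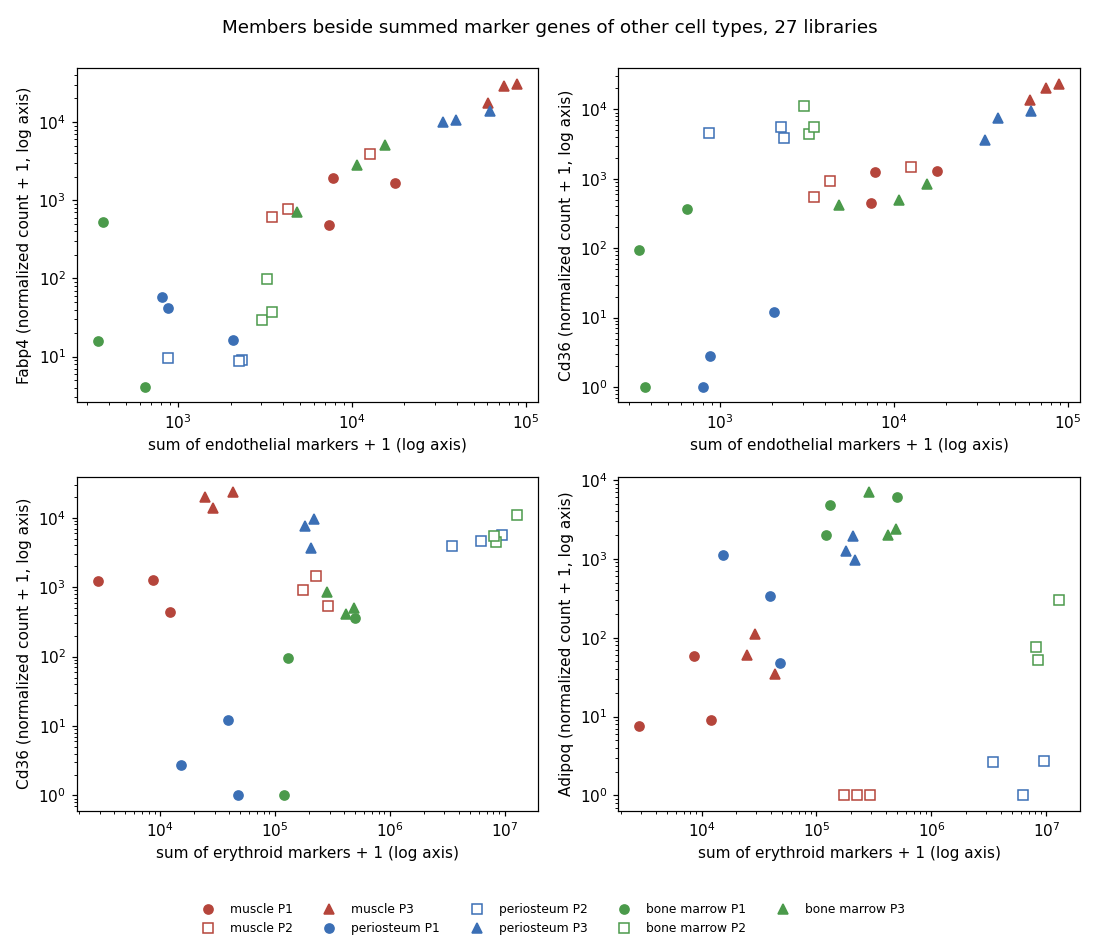
Fabp4, Cd36 and Adipoq against the summed levels of 15 endothelial or 10 erythroid markers in the same library, both axes logarithmic with 1 added, symbols for subpopulations and colours for tissues. The P3 libraries of muscle and periosteum lie at the top right of the Fabp4 panel, bone marrow P3 spreads from 702 to 5078 among the P1 and P2 libraries of muscle, and the P2 libraries of periosteum and bone marrow hold 3923 to 11071 of Cd36 at the highest erythroid sums.

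Lipoprotein lipase was present in every library. Lpl (ENSMUSG00000015568, chr8:68880491-68907448, plus strand) was 2477, 2591 and 3006 in muscle P1, 3753, 4482 and 3120 in P2, and 6433, 6411 and 6594 in P3. Periosteum had 2774, 1340 and 3810 in P1, 462, 928 and 697 in P2, and 1525, 3666 and 4185 in P3. Bone marrow had 7763, 3512 and 9720 in P1, 953, 575 and 1474 in P2, and 13745, 4489 and 2724 in P3. Muscle P3 and bone marrow P1 and P3 were the highest groups and P2 of periosteum and bone marrow the lowest, while muscle P2 did not share that low level. Within bone marrow, Lpl was higher in P1 than in the mean of P2 and P3 by 1.502 ± 0.44 (adjusted p = 0.0183), just past the fold threshold, and by 1.83 (adjusted p = 0.00219) without bone marrow P3 replicate 1. In muscle all 3 P1 libraries were below those of P2 and P3, and the difference of differences between muscle and bone marrow was -2.38 ± 0.63 (adjusted p = 0.02), or -2.71 (adjusted p = 0.00323) without bone marrow P3 replicate 1. It was lost without muscle P1 replicate 1 (-2.32, 0.0552), bone marrow P1 replicate 1 (-2.24, 0.0652) or bone marrow P1 replicate 3 (-2.08, 0.0743), and with totals made equal it was -1.67 (0.139) with globins and -1.24 (0.256) without. The bone marrow difference was lost without bone marrow P1 replicate 1 (1.36, 0.0894), P1 replicate 3 (1.203, 0.127), P2 replicate 2 (1.33, 0.039), P3 replicate 2 (1.43, 0.0399) or P3 replicate 3 (1.25, 0.0501), and with equal totals it was 1.08 (0.117) with globins and 0.64 (0.34) without.

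Among tissues Lpl changed by less than the fold threshold. Muscle exceeded periosteum by 1.27 ± 0.30 (adjusted p = 0.00297) and periosteum was below bone marrow by -0.94 ± 0.30 (adjusted p = 0.0212), the latter -0.73 (0.0524) without bone marrow P3 replicate 1. Its closest genes were Cp (r = 0.835), Fgf7 (0.833) and Dpep1 (0.817). Cp is also on the list of marrow stroma genes.

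Apolipoprotein E had its lowest group mean in P2 of every tissue, unlike lipoprotein lipase, which was lowest in P1 of muscle. Apoe (ENSMUSG00000002985, chr7:19696109-19699188, minus strand) was 3957, 3992 and 5043 in muscle P1, 1133, 1681 and 1911 in P2, and 7983, 9243 and 7774 in P3. Periosteum had 2155, 2481 and 2800 in P1, 164, 125 and 2173 in P2, and 4954, 7864 and 8309 in P3. Bone marrow had 6352, 2325 and 4388 in P1, 166, 489 and 222 in P2, and 11176, 2811 and 5573 in P3. P3 was above P1 without overlap in muscle and periosteum, but no P3 against P1 comparison passed, and periosteum P2 replicate 3 stood far above its group. In bone marrow Apoe was higher in P1 than in the mean of P2 and P3 by 1.73 ± 0.60 (adjusted p = 0.0428) and by 1.98 (adjusted p = 0.0248) without bone marrow P3 replicate 1. Leaving out any of 6 other bone marrow libraries ended that call: 1.40 (0.197) and 1.66 (0.127) without P1 replicates 1 and 3, 1.56 (0.0864) and 1.67 (0.0738) without P2 replicates 1 and 3, and 1.48 (0.101) and 1.73 (0.066) without P3 replicates 2 and 3. With totals made equal it was 1.31 (0.131) with globins and 0.87 (0.299) without. Between tissues Apoe was 1.07 ± 0.40 higher in muscle than in bone marrow on the log2 scale (adjusted p = 0.0471) and 1.06 ± 0.40 in muscle against periosteum (adjusted p = 0.0528), both under the fold threshold. Fgf7 (r = 0.909), Steap4 (0.89) and Cdc42ep1 (0.882) were closest in pattern.

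**Figure D3:**
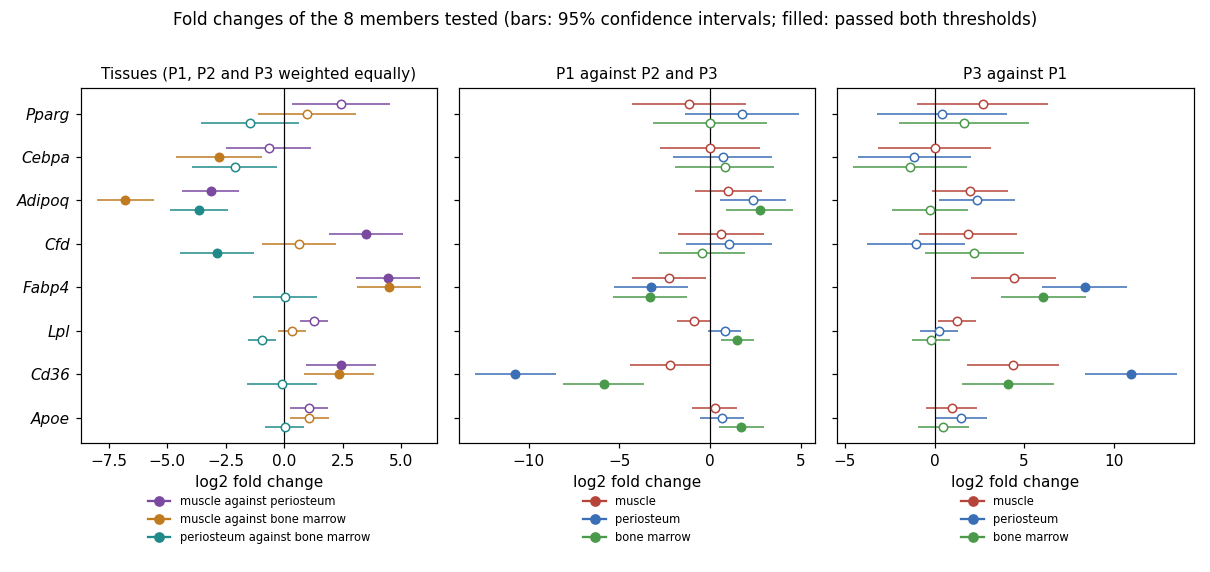
Log2 fold changes of the 8 members tested, with points for estimates, bars for 95% confidence intervals and filled symbols for genes past both thresholds, for tissues (left), P1 against P2 and P3 (middle) and P3 against P1 (right). Adipoq was lowest in muscle at -6.79 against bone marrow, and Fabp4 and Cd36 lay to the right in every P3 against P1 comparison.

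By mean log2 level, muscle P3 ranked first of the 9 groups for Pparg, Cfd, Fabp4, Lpl, Cd36 and Apoe, and bone marrow P1 for Cebpa and Adipoq. Most neighbours in these orders did not differ beyond the spread of their libraries. The steps that passed at an adjusted p under 0.05 were 1 for Adipoq, from muscle P1 down to periosteum P2 (adjusted p = 0.0335), 1 for Fabp4, from muscle P1 down to bone marrow P2 (adjusted p = 0.00334), 1 for Lpl, from periosteum P1 down to bone marrow P2 (adjusted p = 0.0354), 1 for Cd36, from bone marrow P3 down to bone marrow P1 (adjusted p = 0.0455), and 1 for Apoe, from muscle P2 down to periosteum P2 (adjusted p = 0.0236). Pparg, Cebpa and Cfd had none. For Fabp4 the means of P3 of all tissues and P1 and P2 of muscle lay above that step, and the other 4 below it. The test itself covered only muscle P1 and bone marrow P2. Libraries overlapped across the step: bone marrow P1 replicate 2, at 532, exceeded muscle P1 replicate 1, at 484.

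The other patterns most like a member were descriptions over 27 libraries that share tissues, gates and the composition of each library. Adipoq was closest to Gdpd2 (Pearson r = 0.954), Tmem86a (0.906) and Serpina3g (0.884). For the scarce members the closest genes were Rwdd3 (0.822), Pus7l (0.818) and Rin1 (0.804) for Pparg, Ly86 (0.756), Chic2 (0.755) and Crygs (0.75) for Cebpa, and Gm4787 (0.768), Mkrn3 (0.768) and Smim24 (0.761) for Cfd. Between members, counts also depend on gene length, so rough values per length are given. Merged exons join all annotated transcripts and can exceed the length of the one expressed. For Fabp4 they were 4489 bases, its whole gene span, and for Lpl 10478 bases. These values therefore do not rank the members. Per kilobase of merged exons, bone marrow P1 held means of 3130 ± 1520 (SD, n = 3) for Adipoq, 2040 ± 942 for Apoe and 668 ± 303 for Lpl, and muscle P3 held 5710 ± 1620 for Fabp4, 5310 ± 1390 for Cd36, 3900 ± 372 for Apoe, 618 ± 9.53 for Lpl and 49.4 ± 28.5 for Adipoq.

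Of 28 adipogenic regulators outside the members, muscle exceeded periosteum in 15 and fell below it in 0, with a median log2 difference of 1.94 against 0.56 over all genes tested, of which 17.2% were higher, and 13 did not pass. Muscle exceeded bone marrow in 12 and fell below it in 0, with a median of 1.48 against -0.10 and beside 10.9% of all genes higher, and 16 did not pass. In P1 alone 1 of the 28 was higher in muscle than in periosteum, beside 4.34% of all genes, and 5 were higher than in bone marrow, beside 5.4%. The highest mean of 8 of the 28 was in muscle P2, the group with the fibre markers, whose part in these counts was not tested. Under quantile normalization muscle exceeded periosteum in 9 and bone marrow in 12. In that setting 3886 and 4753 of all genes were called in either direction, against 3767 and 4005 in the main fit. Cebpd, which acts early in the cascade, had means of 6181 in muscle P1, 2305 in P2 and 1910 in P3 and of at most 989.2 in the other tissues. Ebf2, a marker of committed preadipocytes, was higher in muscle than in bone marrow by 4.52 ± 0.65 (adjusted p = 9.37e-06). Nr1h3, the sterol receptor LXRα, was higher in muscle than in periosteum by 4.75 ± 1.04 (adjusted p = 0.00189), and so was Ppargc1a, the PPARγ coactivator abundant in muscle fibres, by 4.74 ± 0.88 (adjusted p = 0.000381). The highest Ppargc1a mean, 1506, was in muscle P2. Egr2, an early inducer of adipogenesis, was higher than in bone marrow in muscle by 6.41 ± 0.65 (adjusted p = 4.81e-08) and in periosteum by 7.17 ± 0.65 (adjusted p = 1.43e-08). Klf4 followed the same order, at 3.41 ± 0.30 (adjusted p = 4.58e-09) and 3.69 ± 0.30 (adjusted p = 2.56e-09). Members of the list that restrain adipogenesis also moved, among them Dlk1, higher in muscle than in bone marrow by 3.61 ± 0.75 (adjusted p = 0.000663), and Zfp521, by 4.20 ± 1.05 (adjusted p = 0.00362). Wnt10b, which also inhibits fat formation, was higher in P1 than in P2 and P3 of muscle by 5.48 ± 1.35 (adjusted p = 0.04). It was listed at 0 in 20 of 27 libraries, including all of muscle P2, so that fold depends on the pseudocount.

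Of 35 genes of the lipid droplet and of adipocyte maturation, 12 had their highest mean in muscle P2. Of the 35, muscle exceeded periosteum in 14 and fell below it in 0, beside 17.2% and 3.19% of all genes. The median was 1.31 against 0.56 for all genes. Muscle exceeded bone marrow in 8 and fell below it in 0, beside 10.9% and 10.8%, with a median of 0.53 against -0.10. Gpd1, of glycerol phosphate synthesis, was higher in muscle than in periosteum by 6.16 ± 0.87 (adjusted p = 1.58e-05), and Plin4, another droplet coat gene, by 5.76 ± 0.80 (adjusted p = 1.28e-05). Their highest means, 6144 and 403.8, were in muscle P2, beside the fibre markers, whose part was not tested. Plin4 was listed at 0 in every periosteum library, so its fold depends on the pseudocount. Plin2, the coat protein of droplets in many cell types, had group means of 59.54 to 1340. The fat cell genes Cidec, Lep and Retn were at most 108, 115 and 80.5 in any library, and Cidec was listed at 0 in 18 of them. Aqp7, the glycerol channel of adipocytes and capillaries, was higher in P3 than in P1 by 6.60 ± 0.97 in muscle (adjusted p = 0.0011) and 6.51 ± 0.97 in periosteum (adjusted p = 0.00015). In bone marrow 6 of the 35 were higher and 5 lower in P1 than in P2 and P3, beside 7.48% and 11.5% of all genes. The median was -0.38, against -0.39 over all genes. Scd1, the desaturase of fatty acid synthesis, was higher in P1 by 3.56 ± 0.45 (adjusted p = 3.07e-06) and Rbp4 by 3.50 ± 0.86 (adjusted p = 0.00499). With totals made equal this split was 4 higher and 5 lower, and without globins 4 higher and 9 lower. In these scalings 3397 and 4534 of all genes were called in either direction, against 3494 in the main fit. The median of all genes was -0.73 and -1.12.

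Among 25 genes of lipid and lipoprotein uptake, 7 were higher and 3 lower in bone marrow P1 than in P2 and P3, beside 7.48% and 11.5% of all genes, with a median of 0.86 against -0.39. With totals made equal without globins 4 were higher and 5 lower. In that scaling 4534 of all genes were called in either direction, against 3494 in the main fit. The median of all genes moved to -1.12. In periosteum 2 were higher and 4 lower in that comparison, beside 4.32% and 4.84% of all genes. In muscle 1 was higher and 1 lower, beside 0.591% and 0.455%. P3 against P1 called 2 of the 25 for muscle, 3 for periosteum and 5 for bone marrow, beside 0.466%, 4.18% and 6.60% of all genes. Against P2 and P3 of bone marrow, P1 was higher in Vldlr, a receptor for triglyceride-rich lipoproteins, by 5.67 ± 0.98 (adjusted p = 0.000182). Fabp3, a fatty acid carrier of muscle, was higher in P1 in that comparison by 5.04 ± 0.85 (adjusted p = 0.000148). Gpihbp1 was lower in P1 than in P2 and P3 of bone marrow by -5.65 ± 0.97 (adjusted p = 0.000173). Against P1, P3 was higher in Gpihbp1 by 8.40 ± 1.12 in muscle (adjusted p = 0.00032), 9.78 ± 1.12 in periosteum (adjusted p = 4.95e-06) and 8.58 ± 1.12 in bone marrow (adjusted p = 1.74e-05). Scarb1, the receptor for high density lipoprotein, was also higher in P3 than in P1 of muscle, by 3.67 ± 0.67 (adjusted p = 0.0095). Among tissues Apod was higher than in bone marrow by 7.68 ± 0.41 in muscle (adjusted p = 1.32e-12) and 6.04 ± 0.41 in periosteum (adjusted p = 1.21e-10). Its means were 24710 in muscle P1 and 9985 in periosteum P1 against 101.6 in bone marrow P1. Lrp1, the remnant receptor that binds apolipoprotein E, was higher than in bone marrow by 2.25 ± 0.37 in muscle (adjusted p = 4.72e-05) and 2.01 ± 0.37 in periosteum (adjusted p = 0.000299).

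**Figure D4:**
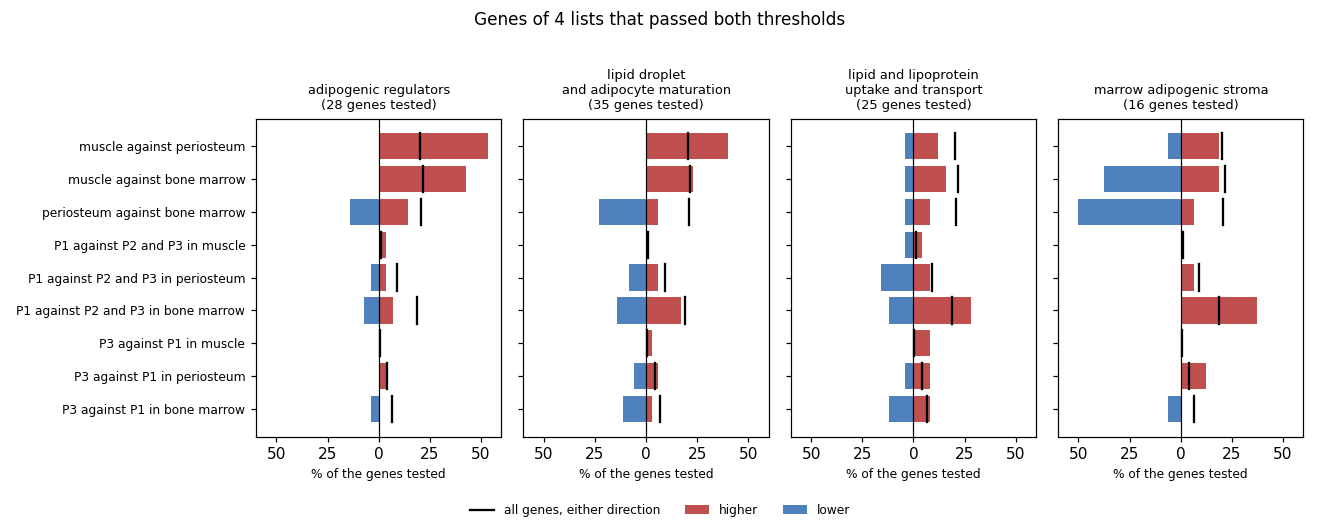
Percentage of the genes of each list that were higher (right of 0) or lower (left) in 9 comparisons, with a black line at the percentage of all 18442 genes called in either direction. For adipogenic regulators 15 of 28 were higher in muscle than in periosteum, and for marrow adipogenic stroma 8 of 16 were lower in periosteum than in bone marrow.

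Of 16 stroma genes known to accompany Adipoq in bone marrow, 9 had their highest mean in bone marrow P1 and 2 in bone marrow P3. The other 5 were Igfbp4, highest in muscle P1, Gas6, highest in periosteum P1, and Pdgfra, Pdgfrb and Kitl, highest in muscle P3. Pdgfra means were 4079, 3979 and 4859 in P1, P2 and P3 of muscle and 3387, 125 and 1091 in those of bone marrow. Pdgfrb means were 4563, 1102 and 5020 against 2681, 94.97 and 1907. Of the 16, periosteum fell below bone marrow in 8 and exceeded it in 1, beside 16.8% and 4.01% of all genes. The median was -1.37 against -0.69 for all genes. Muscle fell below bone marrow in 6 and exceeded it in 3, beside 10.8% and 10.9%, with a median of -0.14 against -0.10. In bone marrow, 6 were higher and 0 lower in P1 than in P2 and P3, beside 7.48% and 11.5% of all genes. The median was 2.53 against -0.39, and the 3 scalings gave 4 to 9 higher and 0 lower. In those scalings 3397 to 4534 of all genes were called in either direction, against 3494 in the main fit. Cxcl12, the chemokine that retains blood stem cells, was 70149, 30282 and 71126 in bone marrow P1, 936, 2368 and 627 in P2, and 101060, 27731 and 30573 in P3, and was higher in P1 than in P2 and P3 by 2.92 ± 0.41 (adjusted p = 1.34e-05). Lepr, the leptin receptor, was 3821, 2565 and 4567 in P1, 488, 346 and 399 in P2, and 6112, 1651 and 1634 in P3. As for Adipoq, P2 was the low group and replicate 1 the highest of P3. Haptoglobin, Hp, was lower in muscle than in bone marrow by -7.72 ± 0.82 (adjusted p = 9.43e-08), and its mean was 7907 in bone marrow P1 and 7298 in P3 against 2210 in P2. Esm1 and Grem1 were also lower in muscle, by -4.71 ± 0.70 (adjusted p = 1.32e-05) and -4.62 ± 0.75 (adjusted p = 4.35e-05). Neutrophil markers, among which Hp is not listed, summed to 10270 to 244700 in the 9 bone marrow libraries and to at most 435 in muscle, and their part in the Hp values was not tested.

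**Figure D5:**
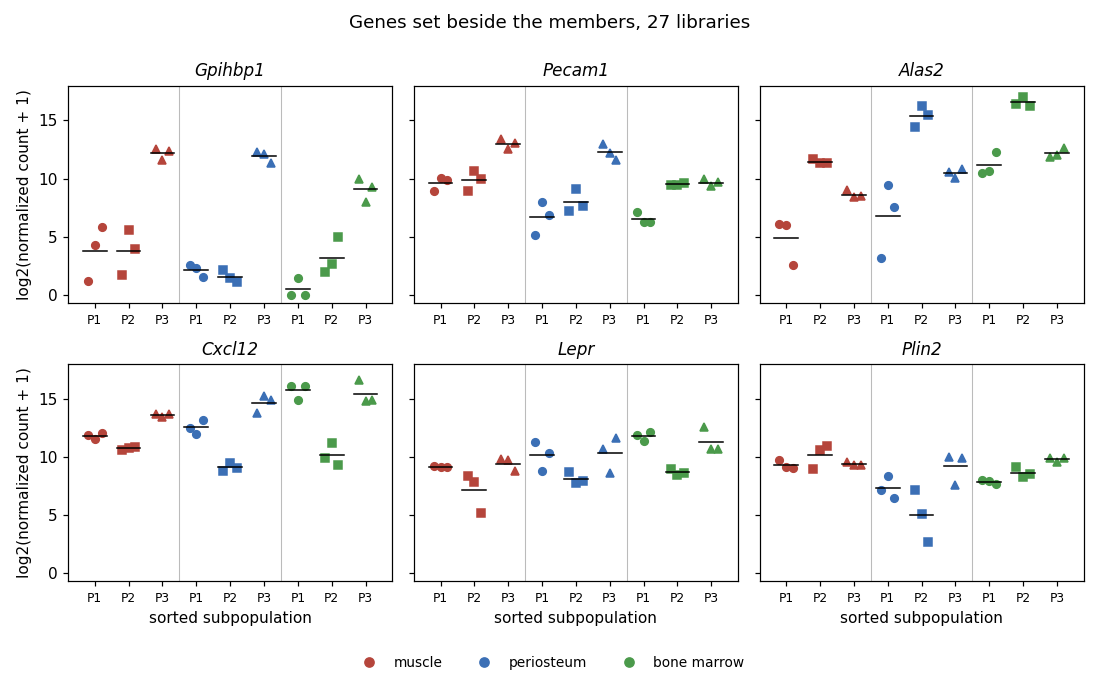
Gpihbp1, Pecam1, Alas2, Cxcl12, Lepr and Plin2 as log2(normalized count + 1) in 27 libraries, with points for libraries and bars for group means. Gpihbp1 was 257 to 5810 in the 9 P3 libraries and at most 55.3 in the other 18, Alas2 peaked in P2 of periosteum and bone marrow, and Cxcl12 and Lepr were highest in P1 and P3 of bone marrow.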

How the data were processed

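The deposited table holds 1 signal value per gene and library, normalized counts that the authors made from SMART-Seq v4 and Nextera XT libraries with Trim Galore, STAR and DESeq2. The genome build, annotation and counter are not given in the sources used here. The values were not raw counts, and only 0.847% to 54.8% of low values in a library were whole multiples of its smallest (tolerance 0.05). A count model was therefore not run. Sequencing depth is not known, because the totals given were taken after normalization. The row of 1 transgene feature, 0.0047% to 0.213% of a total, was left out. Gene positions were matched by symbol and identifier to GENCODE M21 (GRCm38).

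From these values, log2(value + 1) was fitted with limma 3.58.1 in R 4.3.3 (9 group means, eBayes with trend) over 18442 genes with at least 10 in at least 3 libraries, and p-values were adjusted by Benjamini-Hochberg over all of them. All tests were two-sided. Of the remaining 11711 entries, 2455 were at 0 in every library. P1, P2 and P3 were weighted equally in tissue contrasts. The fit was tested on simulated data. Members, lists and tests were chosen with earlier results of these data known. Named were the members and their 3 closest genes by Pearson r. Other genes came mostly from the 4 most abundant of each list and from marker and context genes. A further source was the differentially expressed genes among the 3 largest changes of a list in a comparison. Genes from these sources were chosen without a fixed rule, and values were not given for all of them. Id2 and Scd2, the most abundant adipogenic regulator and lipid droplet gene, were left out. Replicate numbers did not pair the libraries. Alternatives were pseudocounts of 0.1 and 5, no filter, a mean of at least 50, a replicate block, no trend, 3 scalings, fits of the compared groups alone, and leaving out each library. Figures were drawn with matplotlib 3.10.9.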

Additional observations from a re-analysis of the deposited data

Results flagged for a closer look

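The change from P2 and P3 to P1 differed between tissues for 2 members by limma's test of the difference itself. For Lpl, the log2 difference between P1 and the mean of P2 and P3 in muscle minus that in bone marrow was -2.38 (adjusted p = 0.02), with P1 the lowest subpopulation in muscle and P2 the lowest in bone marrow. For Cd36, the same quantity in muscle minus that in periosteum was 8.53 (adjusted p = 0.00267), with periosteum P1 at 0 to 11.1 normalized counts and muscle P1 at 444 to 1275. Endothelial and erythroid marker levels differ between these groups too, and their part was not tested.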

How the results depend on the processing

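With a pseudocount of 0.1, members called went from 4 to 3 in muscle against periosteum and in muscle against bone marrow, and from 3 to 2 in muscle P1 against periosteum P1, which also had 2 with only the groups compared. The counts that moved by over 1.5 times were these. Periosteum against bone marrow went from 2 to 1 with a mean of at least 50. Muscle P1 against bone marrow P1 went from 3 to 1 with only the groups compared. Periosteum P1 against bone marrow P1 went from 1 to 0 with a pseudocount of 0.1, with equal totals (with or without globins), with quantile normalization and with only the groups compared. P1 against P2 and P3 went in muscle from 0 to 1 with only the groups compared, in periosteum from 2 to 1 with a pseudocount of 0.1, no filter, no trend or quantile normalization, and in bone marrow from 5 to 3 with a pseudocount of 0.1 or only the groups compared and to 2 in each of the 3 scalings. P3 against P1 went in muscle from 0 to 2 with a pseudocount of 5 or only the groups compared, in periosteum from 2 to 0 with only the groups compared, and in bone marrow from 2 to 1 with a pseudocount of 0.1, no filter or no trend and to 0 with only the groups compared. The difference between muscle and bone marrow went from 1 to 0 with no trend, equal totals or quantile normalization, and that between periosteum and bone marrow from 0 to 1 with a pseudocount of 5. The causes were not tested.

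Leaving out 1 library gave 4 to 5 members in muscle against periosteum, 3 to 4 in muscle against bone marrow and 2 to 3 in periosteum against bone marrow. In P1 alone it gave 1 to 3, 2 to 3 and 0 to 2 in the same order. P1 against P2 and P3 gave 0 in muscle, 1 to 2 in periosteum and 1 to 5 in bone marrow, P3 against P1 gave 0, 2 and 1 to 2, and the differences gave 1 for muscle and periosteum and 0 to 1 for each of the others. One value reversed: Adipoq in P3 against P1 of bone marrow, -0.27, which never passed, was 0.70 with equal totals, 0.73 without globins and -0.84 to 0.066 with 1 library left out.

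Same-numbered replicates did not deviate together (mean correlation 0.000242 over 36 pairs of groups, 0 above 0.1). A replicate block left 41 values on their side of the thresholds and called Pparg in muscle against periosteum (adjusted p = 0.0314), which made 5 members there. Scaling moved the median log2 change of all genes in bone marrow P1 against P2 and P3 from -0.39 to -0.73 with equal totals, -1.12 without globins and -0.16 with quantile normalization, and in bone marrow P3 against P1 from 0 to 0.79, 0.80 and -0.0025, where all genes called went from 1218 to 2070, 2103 and 1713. In muscle, P3 against P1 went from 86 genes to 213 with quantile normalization, and the difference between muscle and bone marrow from 1366 to 2161 with equal totals without globins. With 3 libraries a group and no raw counts, levels near 10 could not be separated from 0.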
